A study of Mus musculus with 5 samples.

Results

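In mouse spermatogenesis, 10 genes of glycolysis were compared between meiotic and haploid germ cells: Hk1, Gpi1, Aldoa, Gapdh, Gapdhs, Pgk1, Pgk2, Ldha, Ldhb and Ldhc. They were chosen by name, as a group that holds germ cell isozymes beside forms of somatic tissues, with earlier results of these data known. Each symbol matched 1 row, so 10 of the 56324 rows of the gene table were members. The table comes from polyadenylated RNA of 2 spermatocyte samples (germ cells in meiosis) and 3 spermatid samples (haploid cells on the way to sperm). All were purified by sedimentation at unit gravity (Sta-put) from C57Bl/6 males aged 12 weeks with no treatment or altered allele named. The labels do not say whether samples came from separate or pooled animals, so the p-values reflect the variation among the 5 samples alone, and that may be technical. The reads recovered per library ranged from 52784231 to 84361908. Levels are the authors' DESeq-normalized values, in which a library's read counts are scaled by its own size factor.

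Glycolysis turns glucose into pyruvate, and lactate dehydrogenase interconverts pyruvate and lactate. Meiotic and early haploid germ cells are known for taking up lactate and pyruvate made by Sertoli cells, the supporting cells of the seminiferous tubule, whereas sperm carry glycolytic enzymes along the tail, several of them bound to the fibrous sheath. Pgk2, Gapdhs and Ldhc encode forms found almost only in male germ cells. Pgk2 is an autosomal gene without introns that arose as a copy of the X-linked Pgk1, and the X chromosome is silenced in the pachytene stage of meiosis.

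The labels were checked against defining markers. All 7 spermatid markers, which included Prm1 and Tnp1, were higher in spermatids, and 5 of 7 spermatocyte markers, which included Sycp3 and Hormad1, were lower in spermatids. Msh4 was higher in spermatids, and Sycp1 was not past the threshold. Markers of other testis cells were present in both fractions and none was at 0 in all libraries. The 10 Sertoli cell markers summed to 50888 and 66704 in spermatocyte replicates 1 and 2 and to 1183 to 1718 in spermatids. All 10 were lower in spermatids. The 5 Leydig cell markers in the table, all lower in spermatids, summed to 2237 and 2761 in spermatocytes and to 104 to 281 in spermatids. The 7 markers of myoid, endothelial, macrophage and blood cells, of which 6 were higher in spermatids, summed to 313 to 449 in spermatocytes and to 1346 to 2273 in spermatids. Of 8 markers of spermatogonia, the stem and dividing cells before meiosis, 4 were higher in spermatids (Kit, Stra8, Gfra1 and Sohlh1) and 1 was lower (Uchl1), and their sums were 1398 and 1605 in spermatocytes and 1909 to 2536 in spermatids. In bulk RNA, fewer cells of a type and less RNA per cell cannot be told apart.

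Of the 10 genes, 8 differed between the cell types (limma, Benjamini-Hochberg adjusted p under 0.05), where 77.1% of all 28370 tested rows did. Among them 6 were higher in spermatids, beside 40.6% of all rows. These were Hk1, Gpi1, Aldoa, Gapdhs, Pgk1 and Pgk2, with log2 fold changes from 1.57 to 6.00. Gapdh and Ldhb were lower, 2 of 10 beside 36.5% of all rows. Ldha and Ldhc did not pass the test. For all but Ldha, 9 of 10, the spermatid values lay wholly above or below those of spermatocytes, as they did in 85.8% of tested rows. The median log2 fold change of the 10 genes was 1.82, and that of all tested rows was 0.07.

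**Figure D1:**
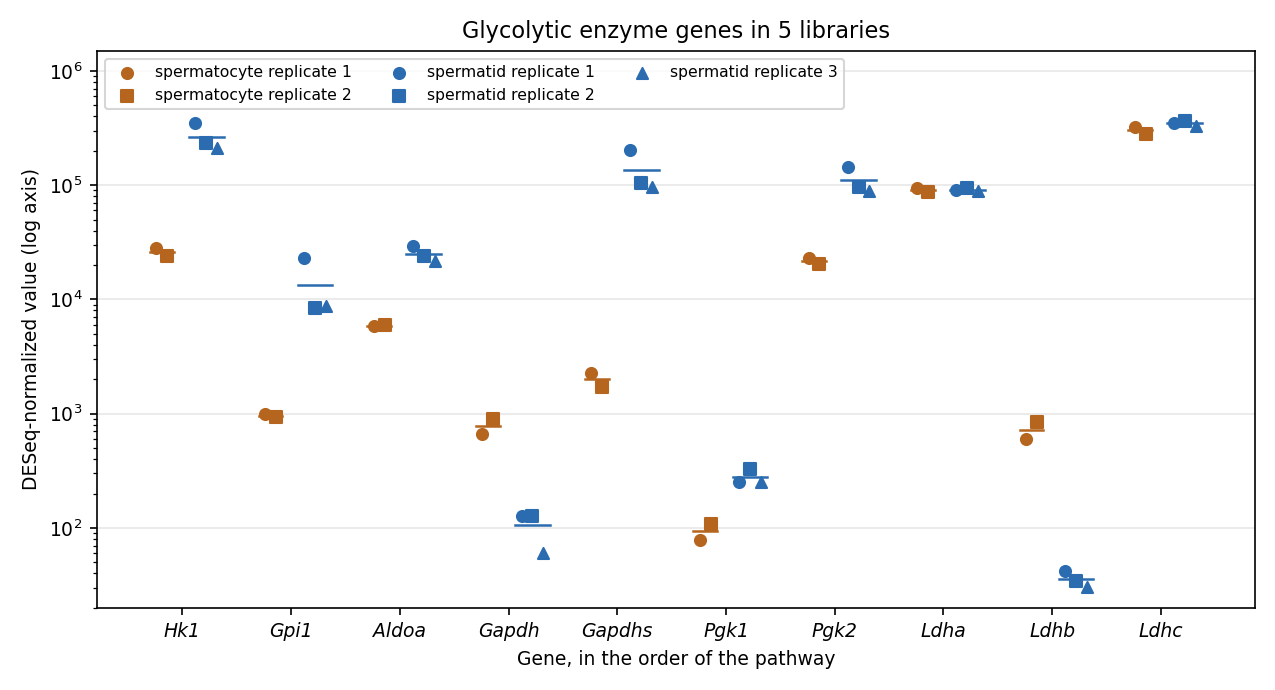
DESeq-normalized value on a log axis for each of the 10 genes in the 2 spermatocyte libraries (brown) and the 3 spermatid libraries (blue), with a line at each group mean. The mean of Gapdhs went from 1998 to 134622, Gapdh and Ldhb fell, and the values of Ldha overlapped between the groups.

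Hexokinase is the enzyme that traps glucose in the cell, and Hk1 encodes the form bound to mitochondria and, in sperm, to the fibrous sheath. The Hk1 row (chr10:62268855-62379908, mm10, the whole gene) had values of 27930 and 23832 in spermatocytes and of 347508, 235036 and 210550 in spermatids. Each spermatid library was far above both spermatocyte libraries, and spermatid replicate 1 was the highest. The log2 fold change was 3.32 ± 0.21 (SE), a 10.2-fold difference of means (limma adjusted p = 1.4e-05). Hk1 has transcripts from more than 1 start, germ cell forms among them, and the row joins them. Per kilobase of exon, Hk1 made up 93.5% ± 2.04 (SD, n = 2) of the summed hexokinase signal in spermatocytes and 99.3% ± 0.02 (SD, n = 3) in spermatids.

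Gpi1 encodes glucose phosphate isomerase, the enzyme after hexokinase (chr7:34201327-34230305). Spermatocytes had values of 994 and 927, and spermatids of 22985, 8429 and 8693. All spermatid values were higher, and replicate 1 stood 2.68 times above the mean of the other two. The log2 fold change was 3.63 ± 0.42 (SE), with an adjusted p of 0.00022 (limma), and it was 3.16 without spermatid replicate 1.

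Aldolase splits fructose bisphosphate, and Aldoa encodes the form of muscle and most other tissues (chr7:126795234-126800447). Aldoa was at 5850 and 5971 in spermatocytes and at 29444, 23846 and 21751 in spermatids, a log2 fold change of 2.07 ± 0.14 (SE; limma adjusted p = 1.5e-05). The groups were well apart, and the spermatocyte values lay close together. The intronless testis genes Aldoart1 and Aldoart2, which arose as copies of Aldoa, had larger fold changes. Aldoart2 went from 1023 and 729 to 68742, 63564 and 55329, a log2 fold change of 6.17 ± 0.17 (limma adjusted p = 5.1e-07). Aldoart1 went from 553 and 418 to 28752, 22242 and 19627, a log2 fold change of 5.59 ± 0.19 (limma adjusted p = 9.4e-07). On values per kilobase, Aldoa made up 71.4% ± 4.76 (SD, n = 2) of the aldolase signal in spermatocytes and 14.8% ± 0.57 (SD, n = 3) in spermatids, where Aldoart2 held 65.4% ± 1.93 and Aldoart1 19.7% ± 1.40. With the longest transcript as length, Aldoa held 82.2% and 24.7%, Aldoart2 11.3% and 57.9%, and Aldoart1 5.08% and 17.5% in spermatocytes and spermatids. The spermatocyte means of Aldoart2 and Aldoart1 were 1.40% and 2.06% of their spermatid means, beside 1.27% to 1.82% for the 7 spermatid markers. The part of spermatid RNA in these spermatocyte levels and shares was not tested.

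**Figure D2:**
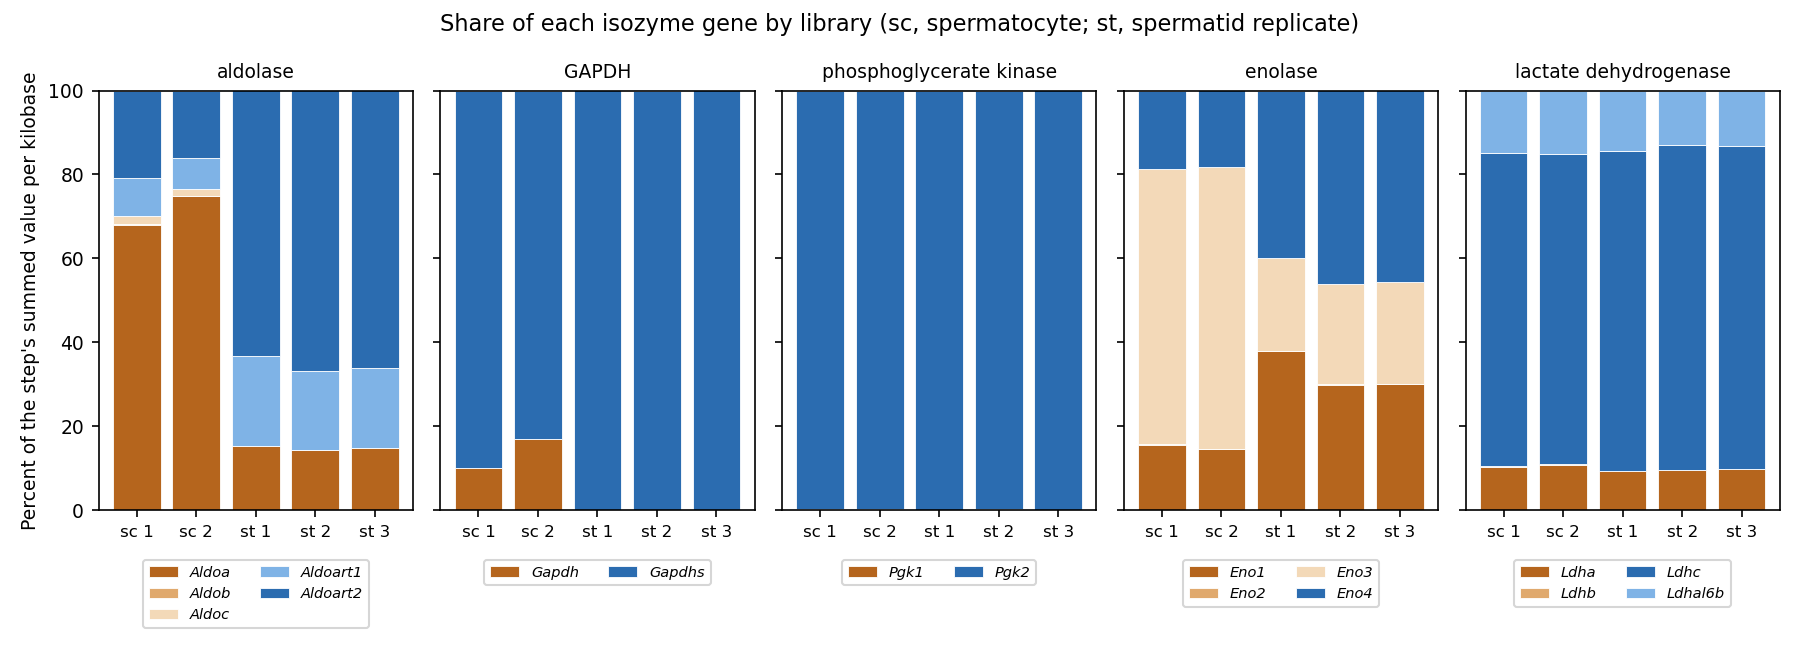
Share of each isozyme gene in its enzymatic step, in percent of the step's summed value per kilobase of exon, for each library. Enolase was summed over Eno1, Eno2, Eno3 and Eno4 only, so the enolase shares shown are too high. Eno1b, with 1877 exon bases, was left out. It was at 1551 and 1539 in spermatocytes and at 15750, 8233 and 7277 in spermatids. Blue marks genes described for testis or sperm and brown the others; Aldoa held 68.0% and 74.8% of aldolase in the spermatocyte libraries (sc) and 14.3% to 15.4% in the spermatid libraries (st), while Pgk2 held over 99% of its step in all 5.

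Glyceraldehyde-3-phosphate dehydrogenase makes the first high-energy phosphate of the pathway, and its 2 genes went in opposite directions. Gapdhs, whose protein is the sperm form tied to the fibrous sheath, lies at chr7:30729780-30739383. It was at 2274 and 1722 in spermatocytes and at 203409, 103513 and 96945 in spermatids. The lowest spermatid value was far above both spermatocyte values, and replicate 1 stood 2.03 times above the mean of the other two. The log2 fold change was 6.00 ± 0.32 (SE), a 67.4-fold difference of means (limma adjusted p = 6.1e-06), and 1304 of the 28370 tested rows had a larger one. Without spermatid replicate 1 the log2 fold change was 5.66. The spermatocyte mean of Gapdhs was 1.48% of its spermatid mean. The 7 spermatid markers had 1.27% to 1.82%, and whether spermatid RNA in the spermatocyte fraction made up the low level was not tested.

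Gapdh, the form of somatic cells (chr6:125161846-125166469), was at 662 and 900 in spermatocytes and at 127, 128 and 60.8 in spermatids, so the groups were well separated in the other direction. The log2 fold change was -2.94 ± 0.36 (SE; limma adjusted p = 0.00029). The spermatid values rest on 82, 129 and 58 reads. Gapdh is uncertain as a level: 79 other annotated genes share a stretch of at least 100 bases at 95% identity or more with its coding transcript, and no source used here says how such reads were counted. A ratio within a library is free of its size factor. That of Gapdhs to Gapdh was 3.43 and 1.91 in spermatocytes and 1600, 810 and 1595 in spermatids. On the log2(value + 1) scale this ratio rose by 8.94 (two-sided exact permutation p = 0.1, the smallest that 2 against 3 samples allow; 0.13 adjusted over 9 ratios).

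Phosphoglycerate kinase makes the first ATP of glycolysis. Both of its genes were higher in spermatids, from very different levels. Pgk2 (chr17:40207017-40208609, a single exon) was at 22813 and 20548 in spermatocytes and at 145018, 96186 and 88837 in spermatids, a log2 fold change of 2.31 ± 0.21 (SE; limma adjusted p = 6.7e-05). All 3 spermatid values were above both spermatocyte values, and replicate 1 was the highest. Pgk1 (chrX:106187124-106203697) was at 78.6 and 108 in spermatocytes and at 253, 328 and 250.5 in spermatids, from 73 to 331 reads per library. Its groups did not overlap either, and the log2 fold change was 1.57 ± 0.23 (limma adjusted p = 0.00073). In the annotation 4 other genes share near-identical stretches with the Pgk1 transcript, so its level is uncertain. Per kilobase Pgk2 was 99.7% ± 0.09 (SD, n = 2) of the step in spermatocytes and 99.8% ± 0.06 (SD, n = 3) in spermatids. The Pgk2 to Pgk1 ratio was 290 and 190 in spermatocytes and 574, 293 and 355 in spermatids. The nearest values of the groups, 290 and 293, nearly met, and the log2 difference of 0.74 had an exact permutation p = 0.2 (two-sided; 0.23 adjusted over 9 ratios).

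Lactate dehydrogenase acts at the end of the pathway. Ldhc, the germ cell form, lies beside Ldha at chr7:46861255-46878142 and had the highest level per kilobase of the 10 genes. By normalized value, without regard to length, 4 rows of the table had a higher mean. It was at 325625 and 281631 in spermatocytes and at 352883, 361992 and 331208 in spermatids. The lowest spermatid value was just above the highest spermatocyte value, and the log2 fold change of 0.20 (95% interval -0.05 to 0.45) did not pass the test (limma adjusted p = 0.12). Ldha, the form of muscle (chr7:46845804-46855626), was at 95260 and 86430 in spermatocytes and at 91483, 93846 and 88953 in spermatids. Its groups overlapped, and the log2 fold change was 0.01 (95% interval -0.20 to 0.22; limma adjusted p = 0.92). The calls on both turned with the scaling. With equal library totals the log2 fold changes were -0.44 for Ldhc (limma adjusted p = 0.0044) and -0.64 for Ldha (0.00078), and after quantile normalization they were -0.53 (0.0023) and -0.57 (0.0062). With TMM factors Ldhc passed in the other direction, 0.22 (limma adjusted p = 0.027).

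Library totals cancel in the ratio of Ldhc to Ldha, which was 3.42 and 3.26 in the meiotic and 3.86, 3.86 and 3.72 in the haploid samples. The spermatid libraries were higher by 1.14-fold (two-sided exact permutation p = 0.1, the smallest possible; 0.13 adjusted over 9 ratios), and this shrank from 0.19 to 0.042 on the log2 scale after quantile normalization. Near-identical stretches of Ldha occur in 5 other annotated genes and of Ldhb in 1, and of Gpi1 in 2. Gapdh had 79, so these levels carry a doubt of the same kind, from fewer copies. Ldhb, the form of heart (chr6:142490250-142507958), was at 601 and 848 in spermatocytes and at 41.9, 34.7 and 30.4 in spermatids, the last 3 values from 27, 35 and 29 reads. All spermatid values were far lower, with a log2 fold change of -4.30 ± 0.26 (SE; limma adjusted p = 1.0e-05). Per kilobase, Ldhc was 74.2% ± 0.55 (SD, n = 2) of the step in spermatocytes and 76.8% ± 0.63 (SD, n = 3) in spermatids, and Ldhb was 0.18% and 0.01%. A further testis gene, the intronless Ldhal6b, was at 59296 and 52881 in spermatocytes and at 60633, 55171 and 52538 in spermatids, and did not pass the test (log2 fold change 0.00, limma adjusted p = 1.0). It was called lower with equal totals (-0.65, limma adjusted p = 0.00021) and after quantile normalization (-0.66, 0.00015).

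**Figure D3:**
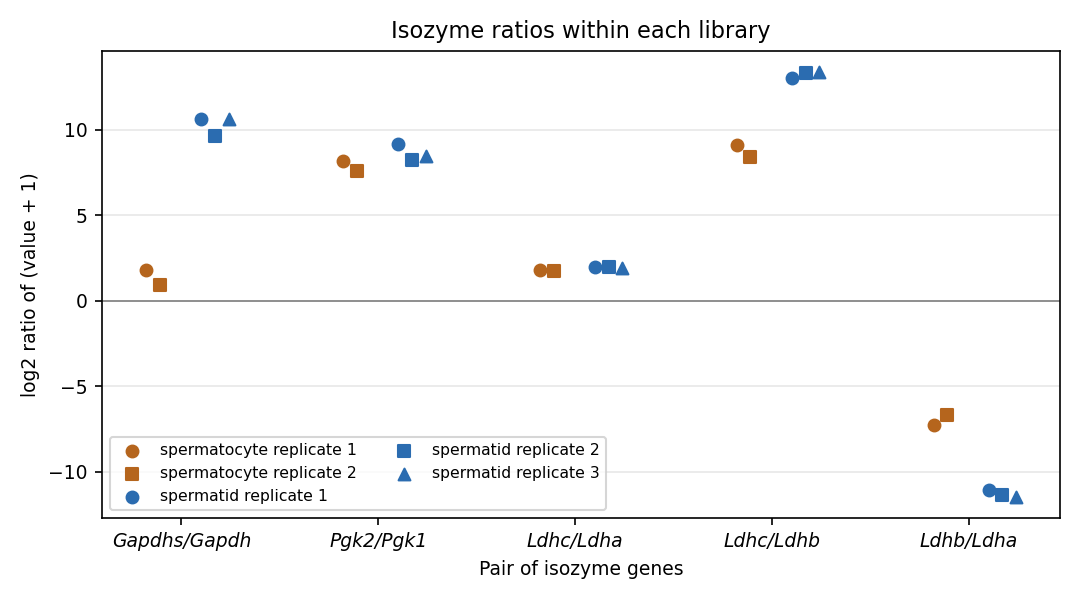
Log2 ratio of (value + 1) of 5 pairs of isozyme genes within each library, spermatocytes in brown and spermatids in blue. Gapdhs over Gapdh rose by 8.94 and Ldhc over Ldhb by 4.50, Ldhb over Ldha fell by 4.31, and the other two pairs differed by 0.74 and 0.19.

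Ldhb, Gapdh and Pgk1 were each higher in spermatocyte replicate 2 than in replicate 1, by 1.41, 1.36 and 1.37 times. This ratio between the replicates had a median of 0.98 over all tested rows. It was 1.31 for the summed Sertoli cell markers, of which 9 of 10 were higher in replicate 2. The summed Leydig cell markers had 1.23 (4 of 5 higher) and those of spermatogonia 1.15 (6 of 8 higher). Summed markers of spermatocytes had 0.92, of spermatids 0.77, and of myoid, endothelial, macrophage and blood cells 0.70. Hk1, Gpi1, Gapdhs, Pgk2, Ldha and Ldhc were lower in replicate 2, Gpi1 at 0.93 times replicate 1, and Aldoa was at 1.02 times. The part of RNA from Sertoli cells, Leydig cells or spermatogonia in the levels of Ldhb, Gapdh and Pgk1 was not tested. In spermatids, replicate 1 stood above the mean of replicates 2 and 3 by 2.68 times for Gpi1, 2.03 for Gapdhs, 1.57 for Pgk2, 1.56 for Hk1 and 1.29 for Aldoa, genes that were higher in spermatids, and by 1.35 for Gapdh and 1.29 for Ldhb, which were lower there. Pgk1, also higher in spermatids, was at 0.87, and Ldha and Ldhc were at 1.00 and 1.02. The median of this ratio was 1.005 over all tested rows and 2.77 over the 7 spermatid markers, which ranged from 0.95 to 4.15. Over the 7 spermatocyte markers it was 1.26, from 1.08 to 1.38. Medians were 1.01 for Sertoli cell, 0.47 for Leydig cell and 0.95 for spermatogonia markers. For myoid, endothelial, macrophage and blood cell markers the median was 0.71. The part of these cell types in the result was not tested. Without spermatid replicate 1 the same 6 genes were called higher and the same 2 lower.

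The regions before the transcription starts show how the germ cell genes and their relatives differ in sequence. The stretches are from RefSeq (GRCm38.p6, the same assembly as mm10), 5′ to 3′ on the strand of the gene, and end at the RefSeq start or, where GENCODE places an exon base before it, at that base. RefSeq starts were matched for 10 of 10 genes, and the start nearest to the row's own end was taken; Gapdh, whose RefSeq start lies 696 bases from it, is not shown. Capitals mark the motifs, which were searched on both strands within 250 bases. The TATA box was searched as TATAAA. For the GC box the letters were GGGCGG, which on the other strand read CCGCCC. The third motif was the CCAAT box, spelled by its name. The cyclic AMP response element was searched whole as TGACGTCA. Its shorter form, TGACG, is also part of every whole element. The variant TGACATCA, or TGATGTCA on the other strand, was added after the sequences were read. Shown are the germ cell genes Gapdhs, Pgk2 and Ldhc with the X-linked Pgk1 and with Ldha, and Hk1, from chr7:30739408-30739657, chr17:40208641-40208859, chr7:46861013-46861202, chrX:106186850-106187099, chr7:46845554-46845803 and chr10:62379909-62380158. Gapdhs, Pgk2 and Hk1 lie on the minus strand and the others on the plus strand.
Gapdhs: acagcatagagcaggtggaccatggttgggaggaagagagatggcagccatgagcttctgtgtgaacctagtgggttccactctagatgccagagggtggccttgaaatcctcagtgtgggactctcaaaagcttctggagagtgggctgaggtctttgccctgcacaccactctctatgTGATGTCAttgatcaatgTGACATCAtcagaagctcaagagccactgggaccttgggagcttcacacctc
Pgk2: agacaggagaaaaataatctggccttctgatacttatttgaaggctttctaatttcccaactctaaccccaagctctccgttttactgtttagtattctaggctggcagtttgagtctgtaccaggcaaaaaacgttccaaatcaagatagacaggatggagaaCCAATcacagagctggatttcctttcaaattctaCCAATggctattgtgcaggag
Ldhc: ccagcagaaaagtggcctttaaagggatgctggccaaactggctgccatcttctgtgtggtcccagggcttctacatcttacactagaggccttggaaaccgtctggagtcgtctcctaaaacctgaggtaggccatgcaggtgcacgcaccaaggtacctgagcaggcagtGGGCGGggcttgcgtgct
Pgk1: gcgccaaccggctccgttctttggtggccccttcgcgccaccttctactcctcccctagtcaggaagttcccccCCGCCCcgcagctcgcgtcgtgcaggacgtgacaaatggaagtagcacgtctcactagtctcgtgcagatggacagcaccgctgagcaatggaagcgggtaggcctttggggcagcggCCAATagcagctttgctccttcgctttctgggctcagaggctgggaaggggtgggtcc
Ldha: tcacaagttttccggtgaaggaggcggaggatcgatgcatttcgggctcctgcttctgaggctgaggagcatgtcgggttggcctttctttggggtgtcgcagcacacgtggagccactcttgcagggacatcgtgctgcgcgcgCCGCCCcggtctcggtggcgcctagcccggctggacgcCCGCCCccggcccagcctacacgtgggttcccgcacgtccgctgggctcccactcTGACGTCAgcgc
Hk1: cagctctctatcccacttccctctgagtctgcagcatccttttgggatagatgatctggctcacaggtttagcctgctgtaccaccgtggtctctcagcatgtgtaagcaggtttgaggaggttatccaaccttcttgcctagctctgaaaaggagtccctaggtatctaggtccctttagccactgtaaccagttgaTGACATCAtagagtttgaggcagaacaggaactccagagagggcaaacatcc

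Gapdhs had 0 CpG dinucleotides in its 250 bases, Hk1 had 1, Pgk2 had 3 and Ldhc had 8, against 17 for Pgk1 and 25 for Ldha. The table holds a further start for 4 of these genes and 250 bases before it too. There Hk1 had 14 CpG dinucleotides and no TGACATCA, Ldha had 9 and no TGACGTCA, Gapdhs had 1 and Ldhc had 3, so the counts depend on the start. Of the genes not shown, Gapdh had 8, and Gpi1 and Ldhb each had 14. Aldoa had 0 at its nearest start, as Gapdhs did, and 21 and 19 at its further starts. The median over the 32851 RefSeq promoters of this length was 6. Gapdhs held the variant TGACATCA on both strands and Hk1 held it once, and 2.93% of all promoters had it. Because this motif was picked from these sequences, the match is only a description. Pgk2 held 2 CCAAT boxes and Pgk1 held 1, a motif found in 33.8% of promoters. Ldha held a full cyclic AMP response element, as 1.55% of promoters do. Ldhc held the short form at 2 places, as 17.8% do at least once, both reaching into bases that GENCODE counts as exon and so not shown. None of the 6 had TATAAA, which 12.4% of promoters hold.

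Levels of different genes were set side by side per kilobase of exon. In spermatocytes the order from the highest was Ldhc, Ldha, Pgk2, Hk1, Aldoa, Gapdhs, Ldhb, Gapdh, Gpi1 and Pgk1, from 192170 to 41.6. Gapdh (160 and 218) and Gpi1 (154 and 144) were close, and they changed places when the longest transcript was used as the length. For Gapdh the union of exons has 4133 bases, the longest transcript 3289 and the longest coding transcript 1420. With the coding length its level per kilobase would be higher, and the order with coding lengths was not computed. In spermatids the order was Ldhc, Gapdhs, Pgk2, Hk1, Ldha, Aldoa, Gpi1, Pgk1, Gapdh and Ldhb, from 220690 to 22.7. The ranges of Gapdhs, at 83616 ± 37057 (SD, n = 3), and Pgk2, at 67659 ± 18780, overlapped, but within each of the 3 spermatid libraries Gapdhs was above Pgk2. The ranges of Hk1 and Ldha also overlapped, as did those of Gapdh and Ldhb, and in both pairs the order differed between libraries. By mean level Gapdhs was sixth in spermatocytes and second in spermatids.

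The rest of the pathway was followed in a list of 51 further genes, of which 49 were in the table and 46 were tested. In spermatids 20 were higher and 15 lower, which as shares is near those of all rows. The median log2 fold change was 0.09. The lower count was 25 under equal totals and 23 under quantile normalization, each of 46 tested. Of all rows, 14635 of 28914 and 13294 of 28370 were lower under these scalings, beside 10359 of 28370 as deposited. Among 22 tested enzymes of glycolysis itself, 11 were higher and 7 lower, 50% and 31.8% beside 40.6% and 36.5% of all rows. Besides the aldolase copies, Pgam2, the phosphoglycerate mutase of muscle and testis, went from 62625 and 54766 to 94112, 82296 and 76808 (log2 fold change 0.52 ± 0.12, limma adjusted p = 0.0057). That rise was lost with equal totals (-0.12, limma adjusted p = 0.17), after quantile normalization (-0.09, 0.35) and without spermatocyte replicate 2 (0.43, 0.072). Pfkm, a phosphofructokinase, was at 23278 and 22534 and at 20211, 21721 and 23019, a difference that did not pass the test (limma adjusted p = 0.43). It was called lower with equal totals (-0.73, limma adjusted p = 0.0021) and after quantile normalization (-0.82, 0.00081). The next 4 genes were chosen after their values were seen. Tpi1, triose phosphate isomerase, rose from 3862 and 3485 to 14651, 11515 and 10289.5 (log2 fold change 1.71), and Pkm, pyruvate kinase, from 3825 and 4696 to 30447, 18333 and 16191. Eno3, the enolase of muscle, fell from 9827 and 9921 to 2688, 2738 and 2875, while Eno4, the enolase of sperm, rose from 4170 and 4001 to 7217, 7855 and 8025.

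**Figure D4:**
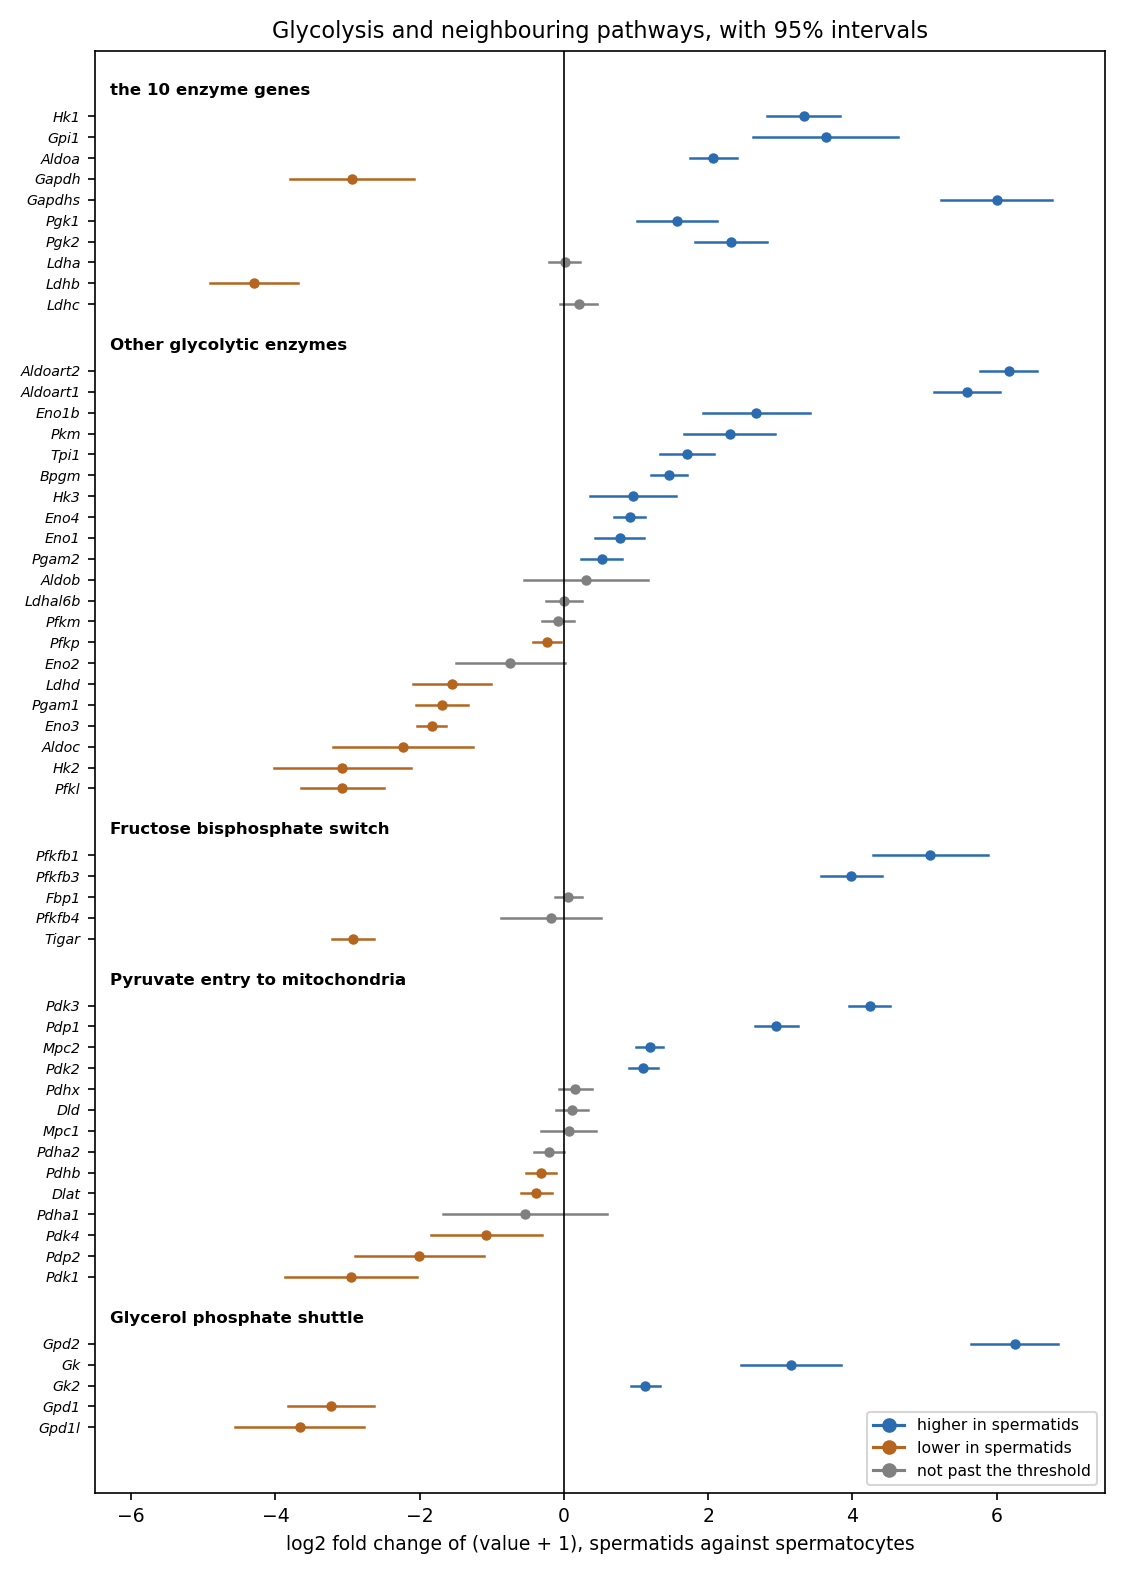
Log2 fold change of (value + 1), spermatids against spermatocytes, with unadjusted 95% intervals from limma, for the 10 genes and the tested genes of the pathway list, 1 of them not shown. Blue genes were higher, brown lower and grey not past the threshold; Gpd2, at 6.25, and Aldoart2, at 6.17, lie farthest to the right.

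The list also held genes that regulate or drain glycolysis. Of the genes that set fructose 2,6-bisphosphate, the activator of phosphofructokinase, Pfkfb3 rose from 323 and 360 to 6743, 5199 and 4558 (log2 fold change 3.99 ± 0.18, limma adjusted p = 2.5e-06). The X-linked Pfkfb1 rose from 9.69 and 18.8 to 616, 473 and 407. Tigar, a phosphatase that lowers the activator, fell from 1720 and 1796 to 233, 234 and 226 (log2 fold change -2.92 ± 0.12, limma adjusted p = 2.0e-06). Pfkfb4 had 2178 and 2363 against 3067, 1481 and 1770 and missed the threshold (limma adjusted p = 0.59), and Fbp1, fructose bisphosphatase, had 33337 and 31834 against 34568, 34231 and 33247 (0.50). Without spermatid replicate 1 Pfkfb4 was called lower (-0.49, limma adjusted p = 0.01). Both Pfkfb4 (-0.83) and Fbp1 (-0.58) were called lower with equal totals, and also after quantile normalization (-0.72 and -0.67).

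Pyruvate enters mitochondria through a carrier, of which Mpc2 is a subunit, and is oxidized by pyruvate dehydrogenase. Mpc2 rose from 13555 and 13832 to 31231, 31580 and 30918. Mpc1, named after its values were seen, was at 462 and 430 and at 509, 502 and 400. It did not pass the test (log2 fold change 0.07, limma adjusted p = 0.71). The kinases that switch pyruvate dehydrogenase off differed: the X-linked Pdk3 rose from 401 and 469 to 8023, 8926 and 7727 (log2 fold change 4.24 ± 0.12, limma adjusted p = 5.3e-07), and Pdk2 rose from 8069 and 7378 to 17028, 16667 and 16044. The other two, named after their values were seen, fell: Pdk1 went from 254 and 310 to 38.8, 51.5 and 22.0 (log2 fold change -2.95, limma adjusted p = 0.00038) and Pdk4 from 47.4 and 42.2 to 24.8, 18.8 and 18.9 (-1.08, 0.019). Dlat, the second enzyme of the complex, fell from 9064 and 8813 to 6385, 7105 and 7065, and its adjusted p was 0.057 without spermatocyte replicate 1 (limma). Pdha2, the intronless testis copy of the X-linked Pdha1, was at 21919 and 21593 in spermatocytes and at 18720, 20035 and 17896 in spermatids (limma adjusted p = 0.065). It was called lower under equal totals, at -0.85, and after quantile normalization, at -0.93. Pdha1 was at 49.5 and 56.3 and at 48.1, 50.5 and 18.9 (limma adjusted p = 0.33), and it was called lower with equal totals (-1.18, limma adjusted p = 0.048). The values of Pdha1 overlapped between the groups, and spermatid replicate 3 was the lowest.

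The glycerol phosphate shuttle carries electrons from glycolysis into mitochondria. Its mitochondrial enzyme Gpd2 rose from 1168 and 803 to 100666, 67232 and 59585 (log2 fold change 6.25 ± 0.25, limma adjusted p = 1.8e-06). The spermatocyte mean of Gpd2 was 1.30% of its spermatid mean, and the part of spermatid RNA in it was not tested. The cytosolic enzymes fell: Gpd1 went from 374 and 523 to 52.7, 41.6 and 45.1, and Gpd1l from 283 and 372 to 15.5, 31.7 and 30.4. Both were higher in spermatocyte replicate 2, by 1.40 and 1.31 times. The summed markers of Sertoli cells had 1.31, of Leydig cells 1.23 and of spermatogonia 1.15. The part of these cells was not tested. The glycerol kinase copy Gk2 rose from 51700 and 49678 to 112446, 113194 and 107424, and the X-linked parent Gk from 12.9 and 14.8 to 152, 139 and 105.

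The ratios of 4 intronless copies to their parents were added after the values were seen. Aldoart1 over Aldoa rose by 3.52 and Aldoart2 over Aldoa by 4.10 on the log2 scale, and Gk2 over Gk fell by 2.02 (each two-sided exact permutation p = 0.1, the smallest possible; 0.13 adjusted over 9 ratios). For both aldolase copies the part of spermatid RNA in the spermatocyte ratios was not tested. Pdha2 over Pdha1 was 442 and 383 in spermatocytes and 389, 396 and 949 in spermatids, not per length, and overlapped between the groups (exact permutation p = 0.8).

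**Figure D5:**
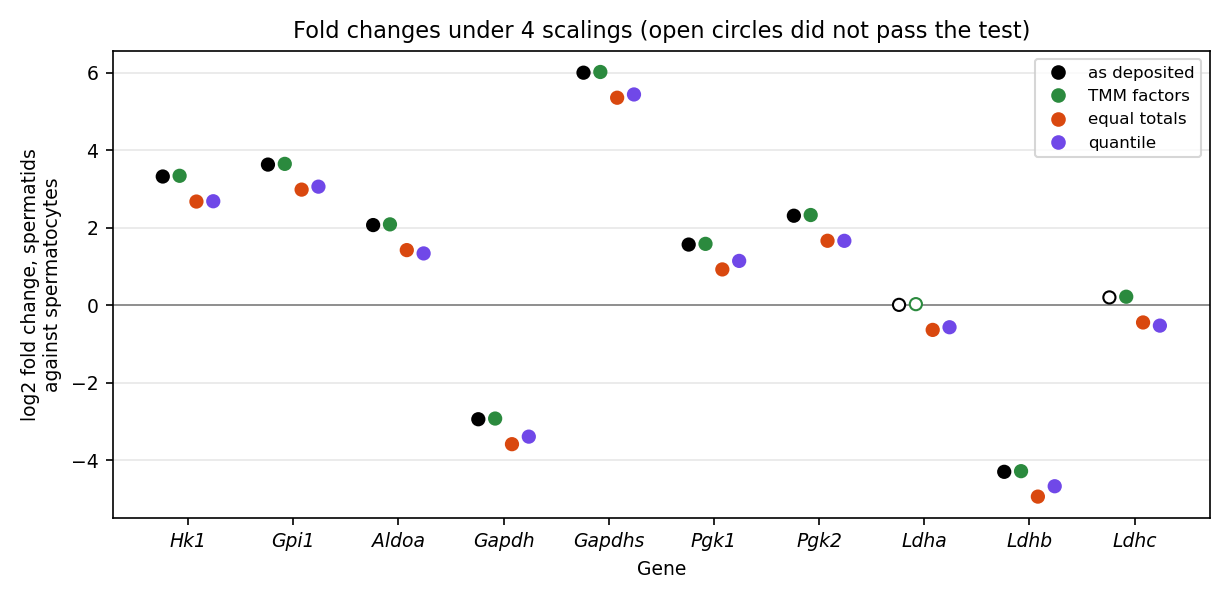
Log2 fold change of each of the 10 genes, spermatids against spermatocytes, under 4 scalings, with filled circles past the limma threshold and open circles not. With equal totals and quantile normalization Ldha and Ldhc lay below 0 and passed; the other 8 had the same direction and call under all 4, and Ldhc also passed with TMM factors.

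The genes whose profile over the 5 libraries lay nearest to 4 of the members were found among 6316 named rows with a mean of at least 1000, by the Euclidean distance of mean-centred log2 values. For Gapdhs they were Iqcf3 (0.07), Actl11 (0.09) and Cdc14a (0.10). For Pgk2 they were Rnf139 (0.09), Picalm (0.10) and Sdccag3 (0.12). For Hk1 they were Hmox2 (0.07), Mlf1 (0.13) and Fam78a (0.15), and for Ldhc Atp5j (0.05), Sec13 (0.05) and Cenpv (0.06). With 5 libraries in 2 groups such likeness is a description only.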

How the data were processed

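Cells were isolated on a Sta-put gradient and TruSeq stranded mRNA libraries were sequenced, per the labels' protocols. In the deposited table each gene has a normalized signal: the authors scaled read counts with DESeq size factors, per the submitters' processing notes. STAR 2.4.0, SAMtools, Picard and FastQC are named there too, and the coordinates are mm10. No source used here names the counting program, its strand setting or how multiply mapped reads were handled, so reads shared by overlapping genes may be assigned to either. Rows of 6 members (Hk1, Aldoa, Gapdhs, Ldha, Ldhb, Ldhc) overlap other rows, all of lower mean over the 5 samples. The row that overlaps Ldhb had a mean of 32.1, while Ldhb was at 30.4 to 41.9 in spermatids. The Ldhb level in spermatids is therefore uncertain.

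All values were whole multiples of the smallest value of their column within 0.001, for 100% of values, and whole reads were recovered by that division. Groups came from the cell type labels; replicate numbers follow accession order and pair nothing. Rows with a mean of at least 10 were tested with limma 3.58.1 (R 4.3.3) on log2(value + 1), with eBayes on a trend, adjusted by Benjamini-Hochberg at 0.05 over 28370 rows. Fold changes on this scale understate the change of low genes. Isozyme ratios were tested by exact permutation (scipy 1.17.1). Exon lengths and near-identical copies came from GENCODE M21 (union of exons; BLAST 2.17.0), promoters from RefSeq. Tigar, Gk and Eno1b were matched by older symbols.

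Named genes were the 10 members, the 4 most abundant of each part of the pathway list, its called genes with an absolute log2 fold change of at least 4, and 6 copies and parents; others are named as such. The values of 1 gene of the pathway list are not reported here, but the list's counts include it. The members and lists were chosen with earlier results of these data known. Alternatives were other pseudocounts, filters, scalings, eBayes without a trend, edgeR 4.0.16 and DESeq2 1.42.0 on recovered reads, another gene length, and leaving out each library. The limma step was tested on simulated data with few changed rows, all abundant and evenly up and down. Here 77.1% of rows were called, so that run does not test the calls made here.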

Additional observations from a re-analysis of the deposited data

How the results depend on the processing

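No paired analysis was possible because the labels give no replicate numbers shared between the groups. Of 150 recomputed fold changes of the 10 genes, 145 kept their side of the threshold and, where called, their direction; the others were those of Ldha and Ldhc. The uncalled Ldha value also fell below 0 without spermatocyte replicate 2 (-0.060) and without spermatid replicate 2 (-0.0084). With equal library totals Ldha was at -0.64 and Ldhc at -0.44, and after quantile normalization at -0.57 and -0.53. Under both, 4 of the 10 genes were called lower in place of 2, and 25 and 23 pathway genes in place of 15. These scalings moved the median log2 fold change of all rows from 0.07 to -0.65 and -0.42. Equal totals also made 36.8% of all calls higher in spermatids and quantile normalization 41.3%, against 52.6%. edgeR called 21931 rows and DESeq2 21759, beside 21871 by limma.

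Of the named pathway genes, Pgam2 turned to -0.12 and -0.086, Ldhal6b to -0.65 and -0.66, and Fbp1 to -0.58 and -0.67 under equal totals and quantile normalization, and the values of Ldhal6b and Fbp1 passed the threshold there. After quantile normalization the Ldhc to Ldha difference was 0.042 in place of 0.19, and that of Ldhc to Ldhb 4.14; the cause was not tested. The added Pdha2 to Pdha1 difference, 0.34 with overlapping groups, changed sign after quantile normalization (-0.017) and without spermatid replicate 3 (-0.070). Leaving out 1 library moved Ldhc over Ldhb between 4.15 and 4.85 and Ldhb over Ldha between -4.63 and -3.99, both extremes without a spermatocyte library. With 1 spermatocyte library left, it is assumed to vary like the spermatids. With the longest transcript as length, the share of Ldhc was 71.2% in spermatocytes and 74.0% in spermatids, that of Ldha 16.1% and 14.7%, and that of Aldoa 82.2% and 24.7%; of 68 shares and levels, not counting Ldhc, Gapdhs and Pgk2 shares, 47 moved by more than the spread between replicates. Counts of 27 to 35 reads limit Ldhb in spermatids.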
